A study of Mus musculus with 6 samples.

Results

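The transcripts described here are those of Prdm9 and 4 genes whose products work beside it at recombination hotspots, Zcwpw1, Hells, Cxxc1 and Ewsr1. These 5 genes were chosen by name from the 49671 gene rows of a count table, and each of the 5 names matched 1 row. The counts came from RNA-seq of the whole testis, taken 12 days post-partum on the C57BL/6J background. Wild-type mice (Ankrd31+/+, 3 libraries) were set against knockout mice (Ankrd31-/-, 3 libraries), and both groups shared strain, age and tissue. The labels used here do not say what change was made in Ankrd31.

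PRDM9 is a meiosis-specific protein that binds DNA through a long array of zinc fingers and places methyl marks on histone H3, and the marked sites become the hotspots where meiotic double-strand breaks are made. ZCWPW1 reads the marks that PRDM9 leaves and aids the repair of the breaks. HELLS is a chromatin remodeller that opens chromatin together with PRDM9, CXXC1 is a CpG-binding subunit of the SET1 histone methyltransferase complex that also binds PRDM9, and EWSR1 is an RNA-binding protein of the FET family that binds PRDM9 in spermatocytes. Prdm9 and Zcwpw1 are known as genes of early meiotic prophase, whereas Hells, Cxxc1 and Ewsr1 are used in many cell types.

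Prdm9 (ENSMUSG00000051977) lies on the minus strand of mm10 chromosome 17 from 15543079 to 15564354, and Zcwpw1 (ENSMUSG00000037108) on the plus strand of chromosome 5 from 137787798 to 137822621. Hells (ENSMUSG00000025001) lies on chromosome 19 from 38930915 to 38971051, plus strand. Cxxc1 is ENSMUSG00000024560, and Ewsr1 (ENSMUSG00000009079) lies on the minus strand of chromosome 11 from 5069689 to 5099266. All are annotated as protein-coding. Exons of Zcwpw1 share 468 bases with Pilra and those of Ewsr1 share 258 bases with Rhbdd3, both on the opposite strand. Pilra had 38 counts and Rhbdd3 3592 counts over the 6 libraries together.

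The promoters of Prdm9 and Zcwpw1 are shown because these were the 2 members whose libraries ranked alike in both genotypes and followed the early prophase genes. The 180 bases before the start of each gene are from RefSeq (GRCm38.p6), at chr17:15564355-15564534, minus strand, and chr5:137787618-137787797, plus strand. Capitals mark a match to CNCCTCAG, the motif known for STRA8, a transcription factor of meiotic entry.
Prdm9: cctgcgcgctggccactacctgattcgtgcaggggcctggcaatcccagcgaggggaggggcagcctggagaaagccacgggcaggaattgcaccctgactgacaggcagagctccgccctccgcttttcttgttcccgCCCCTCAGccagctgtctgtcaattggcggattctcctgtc
Zcwpw1: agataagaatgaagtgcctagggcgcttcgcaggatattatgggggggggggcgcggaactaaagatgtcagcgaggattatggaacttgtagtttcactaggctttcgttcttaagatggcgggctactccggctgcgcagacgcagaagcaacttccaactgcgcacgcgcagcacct

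The motif was searched on both strands of the 250 bases before each start in RefSeq, and 6.42% of 32851 such windows held it. Prdm9 had 1 match, which began 41 bases before its upstream start site, and its second window inside the gene had 0. Neither of the Zcwpw1 windows and none of those of Hells and Ewsr1 held it, and 2 of 20 windows of the early prophase genes used below did. The E2F motif TTTCCCGC, found in 0.895% of all windows, had 1 match in the windows of Prdm9, Zcwpw1, Hells and Ewsr1, in that of Hells, and 2 of the 20 early prophase windows held it. Cxxc1 was not searched. Both motifs were chosen after these promoters had been read, with the matches in Prdm9 and Hells already seen, so that those matches are no independent evidence. The motifs do not overlap each other in these windows, and a match describes letters only.

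The libraries held 21014060 to 22706296 counts assigned to genes, and 18040 genes passed the filter on low counts, among them all 5 members. Ankrd31, the targeted gene, was lower in all knockout libraries, numbered 1, 2 and 3 (40.8, 33.2 and 38.0 CPM, read counts divided by the effective library size and scaled), than in any wild-type library (84.9, 52.3 and 63.2 CPM). Whether exons left intact contribute to this level was not tested, and the level checks the labels only in part. Germ cells and the somatic cells of the testis were present in every library: the summed level of 20 early meiotic prophase genes was 2676 to 4236 TPM (a level scaled to exon length and library) in the wild type and 3131 to 4090 TPM in the knockout, and that of 10 Sertoli cell genes was 9332 to 10293 TPM and 9256 to 10137 TPM. In wild-type replicate 3 the 7 epididymis and rete genes summed to 107.6 TPM, against 2.14 to 11.7 TPM in the other 5 libraries; the part of such tissue in the results below was not tested. Without that library the log2 fold change of knockout over wild type was 0.13 for Prdm9, 0.12 for Zcwpw1, 0.15 for Hells, -0.07 for Cxxc1 and -0.15 for Ewsr1, against 0.12, 0.11, 0.14, -0.02 and -0.08 with all 6 libraries.

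None of the 5 genes passed the test of knockout against wild type. In edgeR's quasi-likelihood test with Benjamini-Hochberg adjustment over all genes 0 of 18040 genes passed (0%), with 374 at an unadjusted p under 0.05 (2.07%), while DESeq2 called 2 genes and limma voom 0, none of them a member. Blocking on the replicate number, edgeR called 8 genes (0.0443%), none of them a member, a count that became 0 when pair 3 was left out, 63 when pair 1 was and 57 when pair 2 was. The sizes for the members were small in all cases, with knockout means between 94.8% and 110.1% of the wild-type means. Ankrd31 itself, at 55.9% of its wild-type mean, did not pass in edgeR without the block (log2 fold change -0.84 ± 0.17, SE, edgeR unadjusted p = 0.00154). It was called by edgeR with the block (adjusted p = 0.00505) and by DESeq2 (adjusted p = 0.00299).

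**Figure D1:**
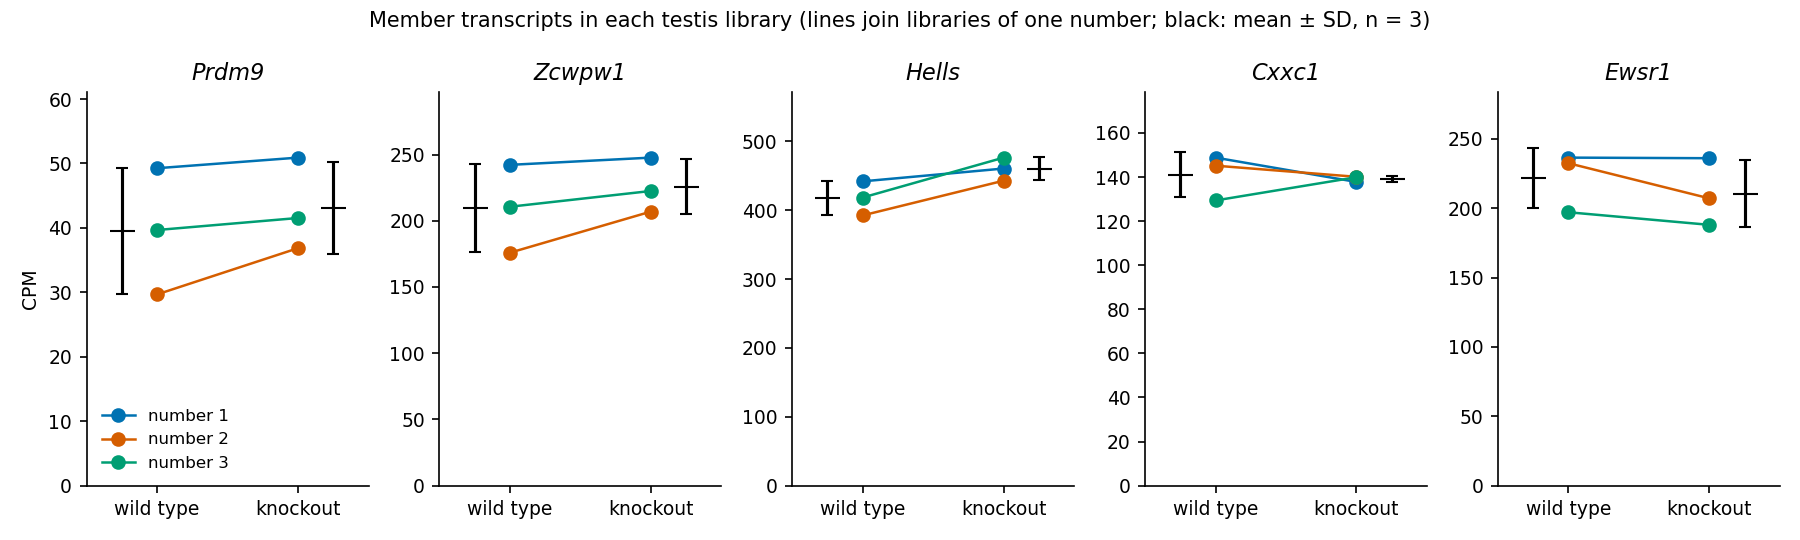
Level of each member in CPM (vertical axis, from 0) in the wild-type and knockout libraries; coloured lines join libraries of the same replicate number, and black marks are the mean ± SD of 3 libraries. The lines of Prdm9, Zcwpw1 and Ewsr1 lie in the same order on both sides. Those of Prdm9, Zcwpw1 and Hells all slope upward, and those of Ewsr1 all slope downward, in part by little.

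Prdm9 is the methyltransferase that sets hotspot positions. Wild-type libraries 1, 2 and 3 had 49.3, 29.7 and 39.7 CPM of it, and knockout libraries 1, 2 and 3 had 50.9, 36.9 and 41.5 CPM. The groups overlapped, and in both genotypes replicate 1 was the highest and replicate 2 the lowest. Wild-type mice averaged 39.5 ± 9.79 CPM and knockout mice 43.1 ± 7.15 CPM (SD, n = 3 each). The log2 fold change was 0.12 ± 0.19 (SE; 95% interval -0.33 to 0.58; edgeR adjusted p = 1.0), so that a change of up to 1.5-fold upward or to 0.796 of the wild-type level lies within the interval. The difference lay mostly in 1 pair: the log2 ratio of knockout to wild type was 0.31 in pair 2 but 0.05 and 0.07 in pairs 1 and 3. Leaving out 1 library turned the sign, since without wild-type replicate 2 the log2 fold change was -0.04, and without knockout replicate 1 it was -0.01.

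Zcwpw1, the reader of the marks, had 242.2, 175.9 and 210.6 CPM in the wild-type libraries, in the order of their numbers, and 247.7, 206.9 and 222.5 CPM in those of the knockout. The order of the libraries was that of Prdm9, and the groups overlapped. Its wild-type mean of 209.5 ± 33.2 CPM compared with 225.7 ± 20.6 CPM in the knockout (SD, n = 3 each). The log2 fold change was 0.11 ± 0.11 (SE; 95% interval -0.15 to 0.37; edgeR adjusted p = 1.0), with pair ratios of 0.03, 0.23 and 0.08. As for Prdm9, pair 2 gave the largest ratio, and without wild-type replicate 2 the value was -0.004.

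Hells, the remodeller, was the member whose groups did not overlap. Wild-type libraries 1, 2 and 3 had 442.0, 392.6 and 418.5 CPM, and those of the knockout 460.7, 443.0 and 476.5 CPM. The lowest knockout library thus lay just above the highest wild-type library, and on the TPM scale the groups overlapped, with 198.5 TPM in wild-type replicate 1 and 192.8 TPM in knockout replicate 2. Of all tested genes, 6.59% had groups that did not overlap, 3.09% with the knockout above the wild type and 3.5% with it below. From 417.7 ± 24.7 CPM in the wild type to 460.1 ± 16.7 CPM (SD, n = 3 each), this was a log2 fold change of 0.14 ± 0.07 (SE; 95% interval -0.01 to 0.29; edgeR unadjusted p = 0.0623, adjusted p = 1.0). The log2 ratios of the pairs were 0.06, 0.17 and 0.19. With the block the value was 0.14 ± 0.04 (edgeR unadjusted p = 0.00673, adjusted p = 0.494), and 243 tested genes had a smaller unadjusted p in that fit.

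Cxxc1, the SET1 complex subunit, varied least. Its levels were 148.8, 145.2 and 129.4 CPM in wild-type libraries 1, 2 and 3, with 137.8, 140.1 and 139.9 CPM in those of the knockout. The knockout libraries lay within the wild-type range, and the order of the replicates was not shared between the genotypes. The log2 fold change was -0.02 ± 0.07 (SE; 95% interval -0.17 to 0.13; edgeR adjusted p = 1.0), with pair ratios of -0.11, -0.05 and 0.11. Its sign turned without wild-type replicate 1 (0.02) and without wild-type replicate 2 (0.002), and without wild-type replicate 3 it was -0.07.

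Ewsr1, the RNA-binding partner, had 236.6, 232.6 and 197.2 CPM in the numbered wild-type libraries, against 236.1, 207.2 and 188.1 CPM in the knockout ones. The groups overlapped, and in both genotypes replicate 1 was the highest and replicate 3 the lowest. The log2 fold change was -0.08 ± 0.10 (SE; 95% interval -0.30 to 0.14; edgeR adjusted p = 1.0), with pair ratios of -0.003, -0.17 and -0.07. Without knockout replicate 3 it was -0.001, without wild-type replicate 3 it was -0.15 and without knockout replicate 1 it was -0.17.

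Pair by pair, Prdm9, Zcwpw1 and Hells were higher in the knockout in 3 of 3 pairs, a pattern held by 13.9% of tested genes, and Ewsr1 was lower in 3 of 3 pairs, as were 14.7% of tested genes. Under the block, the 95% intervals of the log2 fold change were -0.005 to 0.28 for Prdm9, 0.01 to 0.22 for Zcwpw1, 0.05 to 0.23 for Hells, -0.13 to 0.09 for Cxxc1 and -0.18 to 0.02 for Ewsr1. In that fit the adjusted p of edgeR was 0.671 for Prdm9, 0.622 for Zcwpw1 and 0.748 for Ewsr1. At an unadjusted p under 0.05 the blocked fit held 7.48% of all tested genes and 3.59% on the higher side, Zcwpw1 and Hells among the latter.

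**Figure D2:**
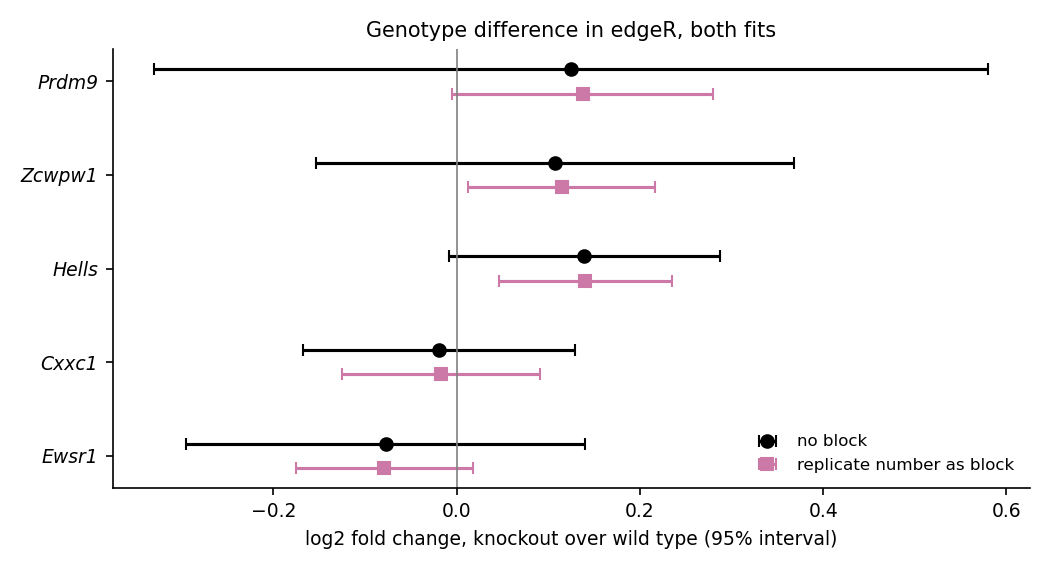
Log2 fold change of knockout over wild type (horizontal axis) for each member with its 95% interval, in edgeR without the block (black circles) and with the replicate number as a block (pink squares). The estimates lie between -0.08 and 0.14 in both fits, and the blocked intervals are narrower.

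Most of the spread of Prdm9, Zcwpw1 and Ewsr1 lay between replicate numbers and not between genotypes. Of the sum of squares of log2 CPM over the 6 libraries, 87.3% fell between numbers, 7.37% between genotypes and 5.32% elsewhere for Prdm9. The share between numbers was 80.7% for Zcwpw1 and 84.7% for Ewsr1, but 42.1% for Cxxc1 and 30.7% for Hells, where 59.4% fell between genotypes. The median over all tested genes was 57.3% between numbers and 9.63% between genotypes. From the lowest to the highest library Prdm9 spanned 1.71-fold, more than 81.8% of tested genes, Zcwpw1 1.41-fold, Ewsr1 1.26-fold, Hells 1.21-fold and Cxxc1 1.15-fold. Prdm9, Zcwpw1 and Ewsr1 each had the same order of replicates in both genotypes, as had 30.4% of all tested genes. With more replicate numbers than genotypes, the share between numbers is on average the larger even where neither matters. These shares are a description, and what the replicate number stands for is not given in the labels.

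Genes of early meiotic prophase ranked the libraries as Prdm9 and Zcwpw1 did. Of 19 tested genes of that list, 16 had replicate 1 highest, replicate 3 in the middle and replicate 2 lowest in both genotypes, as had 6.36% of all tested genes. This order was noticed in Prdm9 and Zcwpw1 and counted afterwards. Sycp3, which encodes a component of the chromosome axis, Dmc1, a meiotic strand exchange gene, and Stra8 itself were among the 16. Of the other marker lists, 3 of 6 tested pachytene genes, 1 of 10 genes of undifferentiated spermatogonia and 0 of 7 genes of differentiating spermatogonia had that order, and so did 0 of 10 Sertoli cell genes and none of the Leydig, myoid, stroma, endothelial, macrophage or epididymis genes tested. In whole testis a lower level can come from fewer cells of a type or from less RNA per cell, and these cannot be told apart.

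Prdm9 stayed at a near constant distance from these genes. The mean log2 CPM of the 19 genes, centred on its own mean over the 6 libraries, was 0.34, -0.45 and -0.12 in wild-type libraries 1, 2 and 3, and 0.32, -0.13 and 0.05 in the knockout ones. Prdm9 lay below that mean by a log2 difference of -1.26, -1.21 and -1.12 in the wild-type libraries, and of -1.20, -1.22 and -1.22 in the knockout libraries. The SD of Prdm9 over the 6 libraries was 0.29 for log2 CPM and 0.05 after subtraction of the early prophase mean, and 4 of 16096 genes with a mean of at least 1 CPM had a smaller remaining SD. For Zcwpw1 the SD went from 0.18 to 0.13, and 177 genes had a smaller remaining SD. Subtraction widened the spread of Hells from 0.10 to 0.24, that of Cxxc1 from 0.07 to 0.30 and that of Ewsr1 from 0.15 to 0.30. The subtracted mean itself had an SD of 0.30. A gene with a much smaller spread of its own thus widens even where it follows the list with smaller swings, and the widening does not tell these apart.

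**Figure D3:**
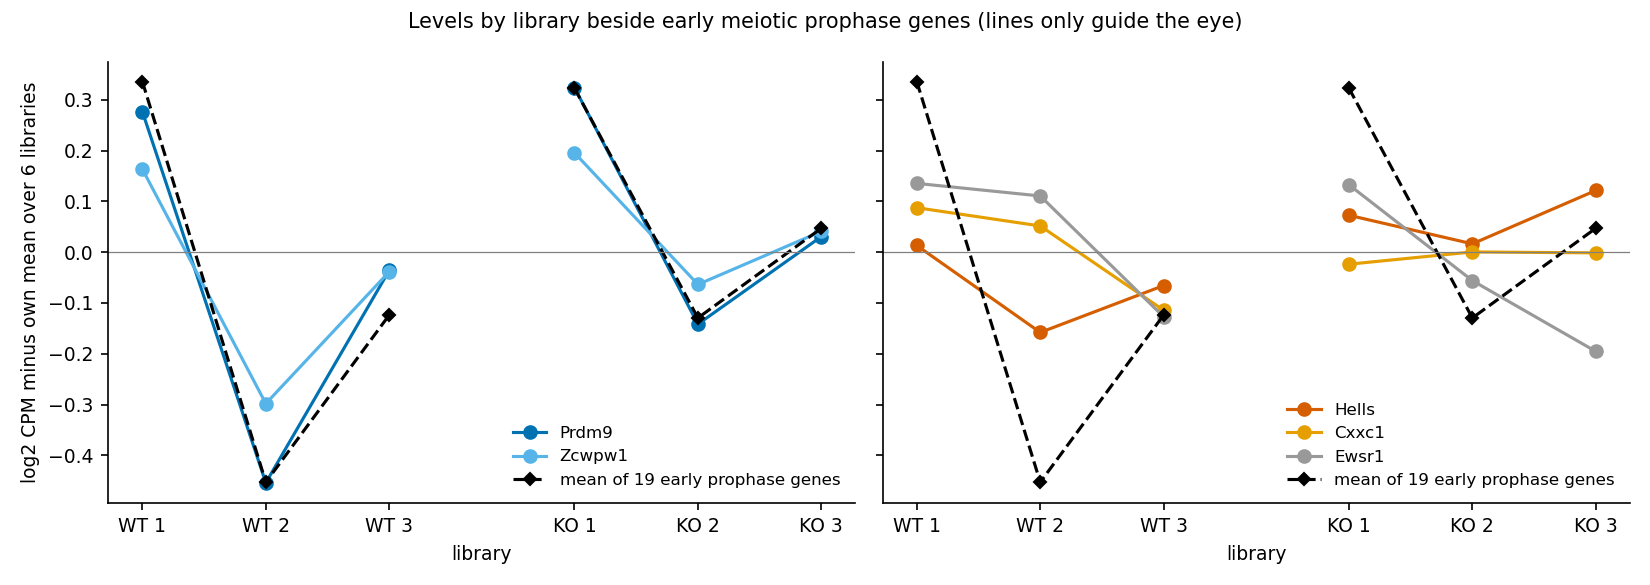
Log2 CPM of each member minus its own mean over the 6 libraries (vertical axis) by library (horizontal axis), with the mean of 19 early prophase genes as a black dashed line in both panels. Prdm9 lies close to the dashed line in every library, and Zcwpw1 follows it with smaller swings. Hells, with small swings, shares the order of the dashed line in the wild type but not in the knockout, where replicate 3 is highest. Cxxc1 and Ewsr1 do not share that order in either genotype.

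Relative to the early prophase genes, no member was called between the genotypes, in a test too small to call any at 0.05. The knockout minus wild-type difference was -0.02 for Prdm9 (exact permutation test over libraries, two-sided, p = 0.8), -0.05 for Zcwpw1 (exact p = 0.7), -0.02 for Hells (exact p = 1.0), -0.18 for Cxxc1 (exact p = 0.6) and -0.24 for Ewsr1 (exact p = 0.6). All 5 adjusted values were 1.0 over these 5 tests. With 3 libraries against 3 the smallest p this test can give is 0.1. Leaving out 1 library turned the sign for Prdm9 without wild-type replicate 3 (0.02), for Zcwpw1 without wild-type replicate 2 (0.02) or knockout replicate 1 (0.007), and for Cxxc1 without wild-type replicate 2 (0.03). For Hells it turned when wild-type replicate 2 (0.12), knockout replicate 1 (0.10) or, by little, wild-type replicate 3 (0.004) was left out. Beside the log2 fold change of 0.14 for Hells, the median log2 fold change of the 19 tested genes of the list was 0.12. Of these genes 16 were higher and 3 lower with 0 passing in edgeR, and the median over all tested genes was -0.005. Whether the Hells value is linked to that of the list was not tested. Of the other marker lists, whose part in the members' values was not tested, 0 genes passed in edgeR, and the median log2 fold change was -0.10 for undifferentiated and -0.0002 for differentiating spermatogonia, -0.11 for pachytene spermatocytes, -0.03 for Sertoli cells and -0.01 for Leydig cells. It was 0.01 for peritubular myoid cells, -0.13 for interstitial stroma, -0.12 for endothelial cells, 0.08 for macrophages and -1.94 for the 4 tested epididymis and rete genes. In pairs 1, 2 and 3 the median log2 ratio of the early prophase list was -0.001, 0.28 and 0.22.

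Across genes, levels per exon length put Hells and Cxxc1 highest and Prdm9 lowest. The wild-type means were 187.0 ± 12.8 TPM for Hells, 173.7 ± 11.6 TPM for Cxxc1, 121.2 ± 10.9 TPM for Ewsr1, 118.7 ± 19.8 TPM for Zcwpw1 and 29.6 ± 7.55 TPM for Prdm9 (SD, n = 3 each). In the knockout they were 201.0 ± 9.10, 167.4 ± 3.12, 112.0 ± 11.7, 124.6 ± 10.9 and 31.5 ± 5.06 TPM in the same order of genes. Hells and Cxxc1 overlapped in the wild type and did not in the knockout, Ewsr1 and Zcwpw1 overlapped in both, and Prdm9 lay below every other member in each library. The ratio of Prdm9 to Zcwpw1 in TPM ran from 0.223 to 0.272 over the 6 libraries, and was 0.247 ± 0.023 in the wild type and 0.251 ± 0.019 in the knockout (SD, n = 3 each). The ratio of Hells to Prdm9 ran from 5.37 to 7.91.

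**Figure D4:**
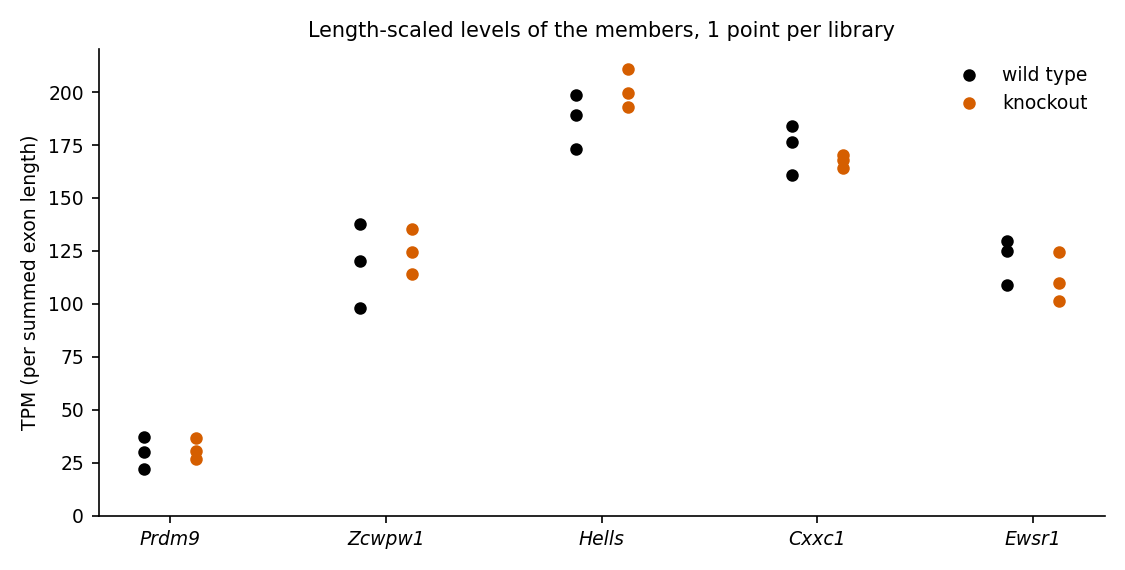
Level of each member in TPM (vertical axis, from 0) with 1 point per library, wild type in black and knockout in orange. Prdm9 lies between 21.9 and 37.0 TPM, below all points of the other members.

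Among its own PRDM family, Prdm9 ranked 3 of 15 genes by wild-type level. Only Prdm4, at 77.3 TPM, and Prdm2, at 60.2 TPM, stood above it, and the next, Prdm10, had 8.66 TPM. Of the other 14 family genes 9 were tested and 5 were below the count filter, with wild-type means of 0.068 to 0.272 TPM. Of the 9, 2 were higher and 7 lower in the knockout with 0 passing in edgeR, and the median log2 fold change was -0.09. Prdm16 had the smallest unadjusted p of these (log2 fold change -0.14 ± 0.09), followed by Prdm11 (-0.18 ± 0.13).

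Zcwpw1 stood 18.3-fold above its paralog Zcwpw2, which had 6.47 TPM in the wild type and a log2 fold change of 0.21 ± 0.19. Of the 6 genes in the list of PRDM9-binding proteins and the paralog, 3 were higher and 3 lower with 0 passing in edgeR and a median log2 fold change of -0.01. Ehmt2, a histone methyltransferase gene, was the most abundant of them at 207.5 TPM (log2 fold change -0.05 ± 0.07), followed by Cdyl, a chromodomain protein gene, at 72.4 TPM (-0.06 ± 0.07). Iho1, whose product is part of the break machinery, had 0.12 ± 0.10. Iho1 also stood in the list of 6 break machinery genes, all of which were higher in the knockout, with 0 passing and a median of 0.14. Of all tested genes, 47.8% were higher. The median log2 ratio of the break machinery list was 0.06, 0.28 and 0.21 in pairs 1, 2 and 3. Within that list, Mei4 (0.30 ± 0.12) and Iho1 had the smallest unadjusted p, and 4 of the 6 shared the library order of Prdm9.

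HELLS belongs to the SNF2 family of remodelling ATPases. In the wild type Hells ranked second of 9 such genes, below Chd4 at 284.6 TPM and beside Smarca4 at 176.9 TPM. Of the other 8, 5 were higher and 3 lower with 0 passing in edgeR, and the median log2 fold change was 0.01. Smarca2 (0.08 ± 0.06) and Chd3 (-0.06 ± 0.06) had the smallest unadjusted p. Of 7 tested genes of the HELLS partners and of DNA methylation, 1 was higher and 6 were lower. In edgeR 0 passed, and the median log2 fold change was -0.01. This list held maintenance genes and also DNA methyltransferase genes that are not of the maintenance type. The median log2 ratio of this list was -0.06, 0.003 and 0.03 in pairs 1, 2 and 3. Dnmt1, the maintenance methyltransferase gene, had -0.01 ± 0.06 at 141.0 TPM in the wild type, and Cdca7, which encodes an activator of HELLS, had -0.01 ± 0.08 at 99.7 TPM. Uhrf1, whose product recruits DNMT1, had -0.05 ± 0.06.

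Cxxc1 ranked second of 9 genes of the SET1 complex, after Wdr5 at 180.7 TPM. It was 4.70-fold above Setd1a, a catalytic subunit gene, at 36.9 TPM. Of the other 8 genes of the complex 3 were higher and 5 lower with 0 passing in edgeR and a median log2 fold change of -0.02; Setd1b had -0.09 ± 0.11 and Ash2l -0.05 ± 0.06. The MLL methyltransferase list had 3 of 5 higher and a median of 0.001. The methyltransferases of histone H3 lysine 36 had 3 of 4 higher and a median of 0.03, and the demethylases of histone H3 lysine 4 had 2 of 6 higher and a median of -0.01. None of these genes passed in edgeR with or without the block.

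Taf15, another gene of the FET family of RNA-binding proteins, stood at a mean of 146.9 TPM in the wild type, against 121.2 TPM for Ewsr1. The knockout to wild-type log2 fold change of Taf15 was -0.004 ± 0.10 (SE), which edgeR did not call. Like Ewsr1, it had replicate 1 highest and replicate 3 lowest in each genotype.

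The genes whose library pattern was most like that of Prdm9 were Gm4032, 4930432K21Rik, Prodh, Ccdc73 and Sec11c. Likeness was the root mean square difference of centred log2 CPM over the 6 libraries, taken over 16095 other genes with a mean of at least 1 CPM, and it was 0.03 for Gm4032 and 0.04 for Sec11c. Zcwpw1 came at rank 105 with 0.10, Hells at rank 1846, Cxxc1 at rank 6256 and Ewsr1 at rank 6320. Sec11c, for example, had 25.4, 15.9 and 20.6 CPM in wild-type libraries 1, 2 and 3, and 26.1, 19.8 and 20.7 CPM in those of the knockout. Gm4032 stood at 0.968 to 1.78 CPM, a low level at which the pattern is coarse. The genes most like Zcwpw1 were Piga, Smc1b, Dcaf6, Taf1b and Far1, with 0.02 for Piga and 0.03 for Smc1b, the meiotic cohesin gene. Smc1b stood at 422.9, 300.7 and 360.3 CPM in wild-type libraries 1, 2 and 3, with 444.9, 364.7 and 395.9 CPM in the knockout libraries.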

How the data were processed

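Counts of reads per gene in 6 libraries were deposited as 1 table without normalization, beside a column of summed exon length in bases, per the file headers. The submitters' processing notes name the tools featureCounts 1.6.0, GSNAP and bcl2fastq 2.19.1 and the build mm10. The kit was strand-specific per the labels' protocols; not given in the sources used for the counting step were its strand setting, its treatment of reads matching several places and its annotation release. The 92 spike-in rows (1 count) were left out; 49412 of 49671 gene identifiers matched GENCODE M21, and 259 did not. The design text, read as 3 mice per genotype, does not say what the replicate numbers mark.

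The 18040 genes kept by filterByExpr went into edgeR 4.0.16 under R 4.3.3 (TMM, robust quasi-likelihood fit, two-sided, threshold 0.05 after Benjamini-Hochberg adjustment); the biological coefficient of variation was 10.3% (5.67% with the block) and the median SE 0.113. SE is the estimate divided by the root of F. TPM used the deposited counts and lengths, and log2 CPM a prior count of 2. Exact tests used scipy 1.17.1. DESeq2 1.42.0 and limma voom 3.58.1, other normalizations and filters, the replicate block, and fits without each library or pair were alternatives. Libraries of one number deviated together from their group means (correlations of 0.42, 0.26 and 0.28 over genes, each above 0.1), and on this hint from the data they were treated as pairs. The sample titles give libraries of one replicate number consecutive running numbers, but the labels do not state a pairing.

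The members and the 21 gene lists were chosen with earlier results of these data known. Named genes were the members, Ankrd31, of each pathway list at most 2 with the smallest p and 2 with the highest level, and the 5 genes most like Prdm9 and Zcwpw1; Sycp3, Dmc1, Stra8, Prdm10 and Setd1a were chosen after values were seen. So were the count of library orders, the shares of sums of squares, the ranking of all genes by the SD left after subtracting the early prophase mean, and the ranks within gene families. Both promoter motifs were picked after the promoter sequences had been read and matches seen in them, the STRA8 motif in Prdm9 and the E2F motif in Hells. The fits were first tested on simulated counts. The values of 1 listed gene are not reported here.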

Additional observations from a re-analysis of the deposited data

How the results depend on the processing

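The count of genes called was 0 in edgeR and became 8 with the replicate block, 2 with DESeq2, 1 without the low-count filter, and, with the block, 63 without pair 1, 57 without pair 2 and 0 without pair 3, the pair that holds wild-type replicate 3; it was 0 in each fit without 1 library. The cause was not tested. No member was called under any of 17 alternatives, the block included, and the block changed no call of a member. In fits without 1 library the log2 fold change ran from -0.045 to 0.32 for Prdm9, -0.0039 to 0.22 for Zcwpw1, 0.097 to 0.18 for Hells, -0.071 to 0.021 for Cxxc1 and -0.17 to -0.0015 for Ewsr1. With the replicate block, Cxxc1 was 0.033 without pair 1 and 0.00065 without pair 2, where its sign turned. Hells was higher and Ewsr1 lower under each of the 17. Relative to early prophase genes, the list's median in place of its mean turned Prdm9 to 0.032, Zcwpw1 to 0.0053 and Hells to 0.030. Without 1 library these differences ran from -0.053 to 0.021 for Prdm9, -0.14 to 0.021 for Zcwpw1, -0.19 to 0.12 for Hells, -0.35 to 0.031 for Cxxc1 and -0.40 to -0.018 for Ewsr1. With 3 animals a group, no difference of any size passed in edgeR without the block after adjustment over all genes, that of Ankrd31 included. The lack of a call for a member in that fit thus says little by itself about the size of its difference.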
